A study of Homo sapiens with 8 samples.

Results

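The genes described here encode the chains of the collagens and the subunits of the integrins. They were taken from the 18773 protein-coding genes of GENCODE on chromosomes 1 to 22 by symbol alone, with 1 matching collagen gene left out. This gave 67 genes, 41 for collagen chains and 26 for integrin subunits. No measured value entered this rule, although it was set with earlier results of these data known. Chromatin accessibility at these genes was measured by ATAC-seq, in which a transposase cuts open chromatin and the cut fragments are sequenced. The cells were HEK293T, a human embryonic kidney line in wide laboratory use. Stable expression of EZH2 in its WT form, or with the substitution Y641F, A677G or H689A/F667I, defined 4 lines, each measured in 2 libraries. EZH2 is the enzyme that methylates lysine 27 of histone H3, a mark of silenced genes. In the study, the gain-of-function (GOF) lines are Y641F and A677G, and the loss-of-function (LOF) line is H689A/F667I. All lines were made by lentiviral transduction with blasticidin selection and kept their endogenous EZH2. The study states that selection was meant to give monoclonal populations, so a line may be 1 clone. The p-values below measure the spread between libraries of these lines.

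Collagens are triple helices that build the fibrils, networks and anchoring structures of the extracellular matrix. Integrins are heterodimers of an alpha and a beta subunit that hold cells to collagens, laminins and fibronectin, and some of them mediate adhesion of leukocytes. In an epithelial-like line such as HEK293T, laminin and fibronectin receptors are in common use, while leukocyte integrins belong to blood cells.

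A promoter was called open in a library where a peak of the deposited list touched the 2 kb centred on a transcription start site of the gene. A closed promoter has no called peak, which does not mean that it has no signal. The read depth is unknown, and the number of peaks on chromosomes 1 to 22 is the measure of yield available. It was 62739 and 60420 in WT, 25423 and 35380 in Y641F, 36744 and 44754 in A677G, with 46317 and 47164 in H689A/F667I. Y641F replicate 1 stood apart with the shortest list. Of 6 markers of HEK293 and kidney lineage, 5 to 6 had an open promoter in every library. None of 5 leukocyte markers was open in any library. Of 4 endothelial markers, 1 was open in each library, and of 5 fibroblast markers 0 to 3 were open.

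The promoters that carry the comparisons below are shown as the 250 bases upstream of a RefSeq start site (GRCh38.p14), read 5′ to 3′ on the strand of the gene. ITGA10 encodes the alpha10 subunit of a collagen receptor and was the promoter gained in A677G. COL18A1 encodes the collagen that carries endostatin and was lost in Y641F. ITGA2 and COL25A1, which are named as GOF targets by the study, and COL4A1, the alpha1 chain of the basement membrane network, were open in all 8 libraries. Capitals mark matches on either strand to the GC box GGGCGG, the CCAAT box, the TATA box TATAAA, the AP-1 motif TGANTCA and the TEAD motif GGAATG.
ITGA10: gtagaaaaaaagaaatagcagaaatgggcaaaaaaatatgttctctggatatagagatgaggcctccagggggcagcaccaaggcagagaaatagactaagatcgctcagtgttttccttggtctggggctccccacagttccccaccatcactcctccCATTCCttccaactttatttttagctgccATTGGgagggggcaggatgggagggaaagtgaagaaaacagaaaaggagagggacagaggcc
COL18A1: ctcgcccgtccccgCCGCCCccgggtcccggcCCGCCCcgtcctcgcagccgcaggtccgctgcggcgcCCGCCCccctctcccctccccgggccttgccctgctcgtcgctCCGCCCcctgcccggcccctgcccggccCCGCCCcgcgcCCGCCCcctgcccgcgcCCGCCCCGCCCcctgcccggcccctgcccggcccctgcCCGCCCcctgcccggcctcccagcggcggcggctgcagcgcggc
ITGA2: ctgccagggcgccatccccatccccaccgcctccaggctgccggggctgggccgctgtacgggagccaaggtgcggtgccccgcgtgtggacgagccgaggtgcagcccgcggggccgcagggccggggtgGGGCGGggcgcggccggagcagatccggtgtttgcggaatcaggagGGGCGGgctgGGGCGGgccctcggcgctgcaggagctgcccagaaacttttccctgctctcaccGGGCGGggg
COL25A1: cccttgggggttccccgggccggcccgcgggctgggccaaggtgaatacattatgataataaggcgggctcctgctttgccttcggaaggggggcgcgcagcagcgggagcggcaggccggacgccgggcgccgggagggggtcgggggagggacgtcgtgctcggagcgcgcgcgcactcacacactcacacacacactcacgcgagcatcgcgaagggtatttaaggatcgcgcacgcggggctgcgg
COL4A1: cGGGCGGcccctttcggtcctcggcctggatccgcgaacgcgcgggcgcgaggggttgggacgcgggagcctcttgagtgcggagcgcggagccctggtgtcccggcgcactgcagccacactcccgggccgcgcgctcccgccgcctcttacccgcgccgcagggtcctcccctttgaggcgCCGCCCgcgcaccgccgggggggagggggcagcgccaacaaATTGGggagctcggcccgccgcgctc

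The ITGA10 stretch (chr1:145910051-145910300, minus strand) had a GC share of 48.4% and 1 CpG, with a ratio of observed to expected CpG of 0.070. It held 1 CCAAT box and 1 TEAD motif and no GC box. The COL18A1 stretch (chr21:45404915-45405164, plus strand) had a GC share of 88.4%, 37 CpGs with a ratio of 0.889, and 9 GC boxes. The ratio was 0.725 for ITGA2 (chr5:52989102-52989351, plus strand), which held 4 GC boxes. It was 1.07 for COL25A1 (chr4:109302659-109302908, minus strand), which held none of these motifs. The COL4A1 stretch (chr13:110307158-110307407, minus strand) had a ratio of 1.01, with 2 GC boxes and 1 CCAAT box. It contains a RefSeq start site of COL4A2, which lies on the opposite strand. The promoter windows of COL4A1 and COL4A2 overlap, so that a single peak can count for both genes. Over the 35116 RefSeq promoters the median ratio was 0.558. A GC box was present in 42.6% of them, a CCAAT box in 32.0%, a TATA box in 10.7%, an AP-1 motif in 6.57% and a TEAD motif in 11.9%. A match is a run of letters and not evidence of binding.

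Collagen and integrin promoters were about as often open as promoters in general, apart from Y641F replicate 1. Of the 67, 50 and 48 were open in the WT libraries, 31 and 44 in Y641F, 45 and 47 in A677G, with 48 and 48 in H689A/F667I. These are 74.6% and 71.6% in WT, against 73.0% and 72.7% of all promoters. In Y641F they are 46.3% and 65.7%, against 60.1% and 66.4%. The mean number of open promoters was 49.0 ± 1.4 (SD, n = 2) in WT, 37.5 ± 9.2 in Y641F, 46.0 ± 1.4 in A677G, and it was 48.0 ± 0 in H689A/F667I. With 2 libraries a line, the smallest p that an exact permutation test allows is 0.333, so these counts were not tested.

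In all, 30 of the 67 promoters were open in all 8 libraries, 26 in some and 11 in none. The 30 comprised 16 collagens and 14 integrin subunits. Over all genes, 58.6% of promoters were open in all 8 libraries and 23.3% in none, against 44.8% and 16.4% of the collagen and integrin promoters. The 11 that were closed throughout were COL2A1, COL3A1, COL6A3, COL9A3, COL10A1, COL28A1, ITGAD, ITGAE, ITGAX, ITGB6 and ITGB7. COL2A1, COL9A3 and COL10A1 encode cartilage collagens, COL3A1 a fibrillar collagen of distensible tissues, and ITGAD, ITGAX and ITGB7 leukocyte subunits.

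**Figure D1:**
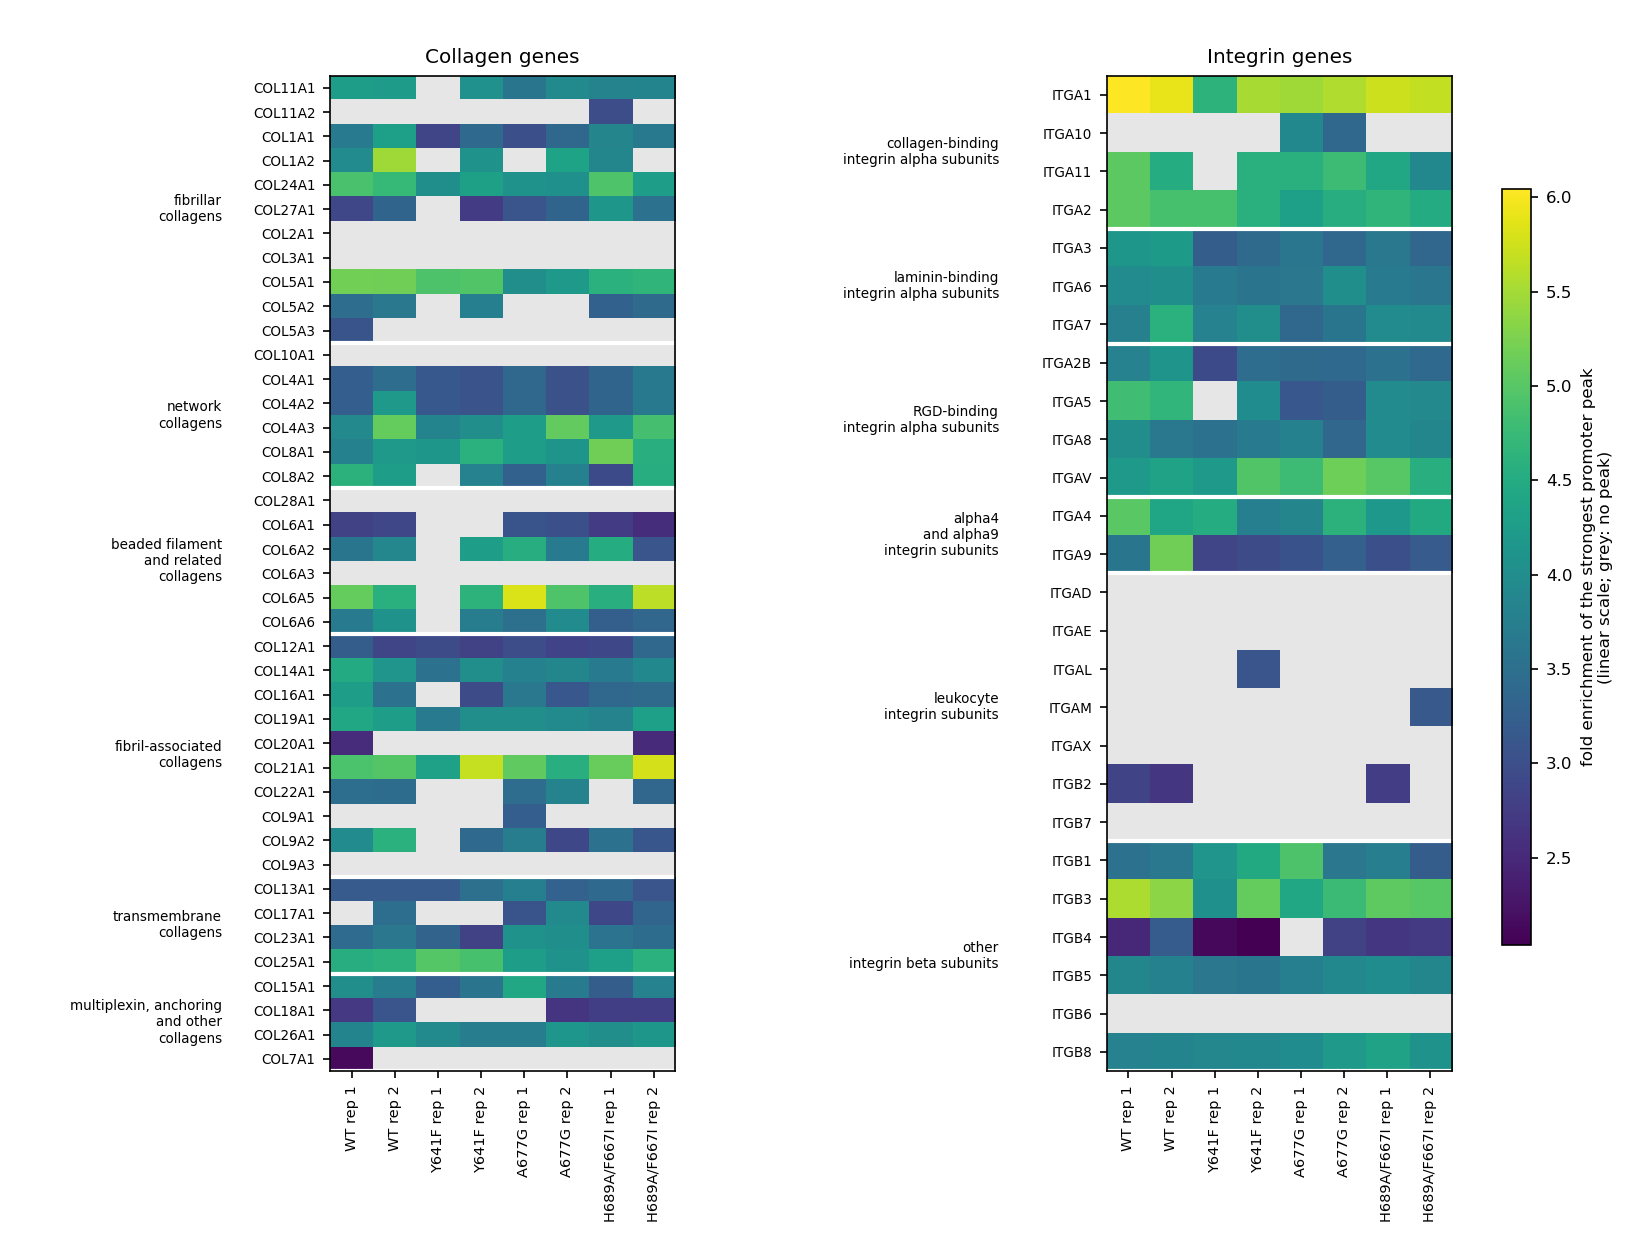
Fold enrichment of the strongest promoter peak (colour, linear scale) for each of the 67 genes (rows, by class) in the 8 libraries (columns). Grey cells have no peak. ITGA1 has the brightest row, the leukocyte integrins are almost all grey, and Y641F replicate 1 has the most grey cells.

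Among the collagens, the fibrillar class, whose chains form the banded fibrils of tendon, skin and cartilage, had 8 and 7 of 11 promoters open in WT, 3 and 7 in Y641F, 5 and 6 in A677G, with 8 and 6 in H689A/F667I. The network class, which includes the basement membrane chains, had 5 of 6 open in every library except Y641F replicate 1, where it had 4. Of the 6 beaded filament and related collagens, 4 were open in each WT, A677G and H689A/F667I library, against 0 and 3 in Y641F. The 10 fibril-associated collagens, which coat and link fibrils, had 8 and 7 open in WT, 4 and 6 in Y641F, 8 and 7 in A677G, with 6 and 8 in H689A/F667I. The 4 transmembrane collagens had 3 or 4 open in every library.

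The integrin classes showed less difference between libraries. All 3 laminin-binding alpha subunits (ITGA3, ITGA6, ITGA7) and both ITGA4 and ITGA9 were open in all 8 libraries. The 4 RGD-binding alpha subunits, which bind fibronectin and vitronectin, were open throughout except ITGA5 in Y641F replicate 1. The 4 collagen-binding alpha subunits had 3 open in WT, 2 and 3 in Y641F, 4 in both A677G libraries and 3 in both H689A/F667I libraries. Of the 7 leukocyte subunits, 0 or 1 was open in each library. Of the 6 other beta subunits, 5 were open in every library except A677G replicate 1, where ITGB4 was closed.

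Y641F replicate 1 accounted for many of the closed cells. In that library 10 promoters were closed that were open in the other 7 libraries (COL6A2, COL6A5, COL6A6, COL8A2, COL9A2, COL11A1, COL16A1, COL27A1, ITGA5 and ITGA11). This is 25% of the 40 collagen and integrin promoters open in the other 7, beside 8.18% of the 11979 such promoters over all genes. COL6A2, COL6A5 and COL6A6 encode chains of the beaded filament class, which had no open promoter in this library. This comparison was chosen after the values were seen.

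Where they were open, collagen and integrin promoters were somewhat weaker than promoters at large. Fold enrichment, the ratio of read pileup to local background that the authors took from the peak caller, had a median of 3.86 and 4.19 over the open promoters of these genes in WT, against 4.18 and 4.22 over all promoters. In Y641F the medians were 3.70 and 3.78 against 4.00 and 4.06, in A677G 3.77 and 3.88 against 4.15 and 4.08, and in H689A/F667I 3.83 and 3.74 against 4.14 and 4.15. The median lay below that of all promoters in each library. The −log10 p of the peak, which grows with depth, had a median of 8.07 and 8.44 in WT and of 5.96 and 6.74 in Y641F, against 11.4 and 11.1, and 7.42 and 8.36, over all promoters. Median width was 1082 and 1072 bp in WT, 727 and 808 bp in Y641F, 853 and 817 bp in A677G, with 937 and 1065 bp in H689A/F667I. Over all promoters it was 1226 and 1211 bp in WT and 770 and 918 bp in Y641F, so that these genes and all genes both had narrower peaks in Y641F.

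The strongest promoters in WT were those of ITGA1, ITGB3 and COL5A1. They were picked by their WT values, a choice that favours lower values in the mutants, so their order is a description only. ITGA1, the alpha1 subunit of a receptor for collagen IV, had a fold enrichment of 6.04 and 5.91 in WT, 4.62 and 5.52 in Y641F, 5.47 and 5.56 in A677G, with 5.73 and 5.68 in H689A/F667I. The ITGA1 start lies within the window of PELO, and the peak cannot be ascribed to either gene. ITGB3, the beta3 subunit of the vitronectin receptor, had 5.55 and 5.34 in WT, 4.05 and 5.10 in Y641F, 4.45 and 4.77 in A677G, with 5.05 and 5.01 in H689A/F667I. COL5A1, a chain of the collagen that nucleates fibrils, had 5.19 and 5.18 in WT, 4.93 and 4.96 in Y641F, 4.02 and 4.21 in A677G, with 4.60 and 4.66 in H689A/F667I.

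By class, the collagen-binding alpha subunits had the highest median fold enrichment of their open promoters in every library except H689A/F667I replicate 2. Their median was 5.04 and 4.88 in WT, 4.75 and 4.59 in Y641F, 4.45 and 4.67 in A677G, with 4.65 and 4.50 in H689A/F667I. The transmembrane collagens had 3.44 and 3.56 in WT and the leukocyte subunits 2.86 and 2.66, the latter from ITGB2 alone. Classes hold 2 to 11 genes, and a class median moves when a gene closes.

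The next question was which promoters closed or opened in a mutant. A promoter was lost where both WT libraries had a peak and neither library of the mutant did, and gained in the reverse case. Among 47 collagen and integrin promoters with a peak in both WT libraries, 4 were lost in Y641F (COL6A1, COL18A1, COL22A1 and ITGB2), 2 in A677G (COL5A2 and ITGB2) and 0 in H689A/F667I. These are 8.51%, 4.26% and 0%, beside 6.83%, 2.19% and 1.51% of the 13371 promoters of all genes. The 95% Wilson intervals were 3.36 to 19.9%, 1.17 to 14.2% and 0 to 7.56%, cover counting error only, and each include the share of all genes. Of 16 promoters closed in both WT libraries, 1 (ITGA10) was gained in A677G and 0 in the other mutants. Over all 4793 such promoters, 0.167% were gained in Y641F, with 0.313% in A677G and 0.605% in H689A/F667I. No collagen or integrin promoter was closed in all 4 GOF libraries among the 44 open in all WT and LOF libraries (0.376% over all genes), and none showed the reverse pattern among 14 (0% over all genes).

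**Figure D2:**
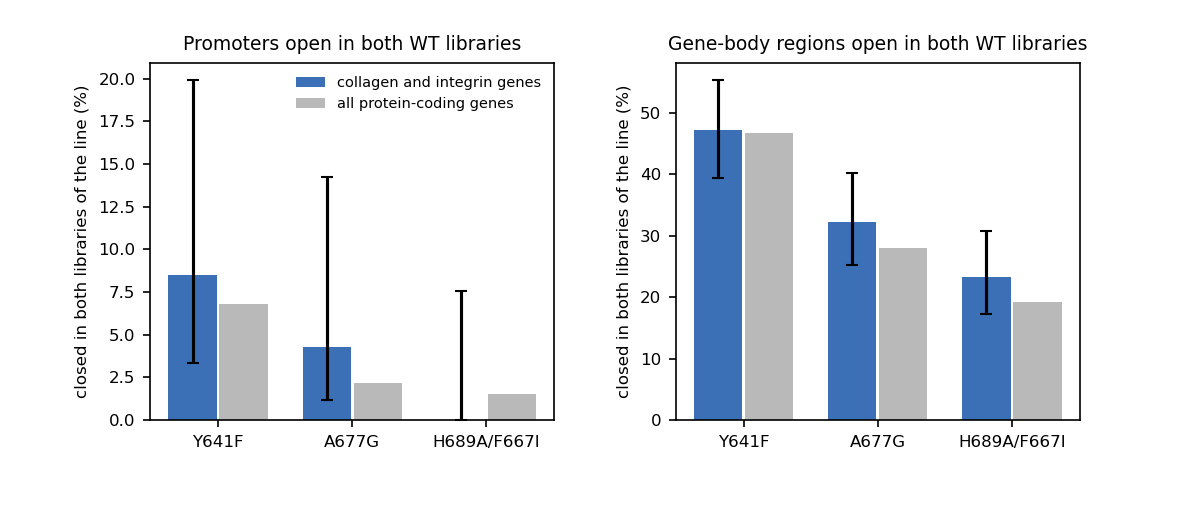
Share of promoters (left) and gene-body regions (right) open in both WT libraries that were closed in both libraries of each mutant line, in percent. Blue bars are the collagen and integrin genes with 95% Wilson intervals, and grey bars are all protein-coding genes. Each interval covers counting error only and includes the grey bar beside it.

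Each lost promoter lay below the WT medians of these genes in both WT libraries. COL18A1 had fold enrichments of 2.70 and 3.09 in WT, 2.64 in A677G replicate 2, and 2.78 in both H689A/F667I libraries, and no peak in the other 3. Its peaks touched more than 1 start site, and the stretch printed above was touched in both WT libraries, A677G replicate 2 and H689A/F667I replicate 2. COL6A1, the alpha1 chain of the microfibrillar collagen VI, had 2.83 and 2.89 in WT, 3.08 and 3.01 in A677G, 2.76 and 2.56 in H689A/F667I, and no peak in Y641F. ITGB2, the beta subunit shared by several leukocyte integrins, had 2.86 and 2.66 in WT and 2.77 in H689A/F667I replicate 1, and no peak in the 5 other libraries. These 3 genes lie on chromosome 21 in hg38, COL18A1 at 45405165 to 45513720, COL6A1 at 45981770 to 46005050 and ITGB2 at 44885953 to 44931989.

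COL22A1, which encodes a collagen of tissue junctions, had fold enrichments of 3.48 and 3.45 in WT, 3.47 and 3.83 in A677G and 3.36 in H689A/F667I replicate 2, and no peak in Y641F or H689A/F667I replicate 1. COL5A2, the partner chain of COL5A1, had 3.47 and 3.64 in WT, 3.76 in Y641F replicate 2, and 3.29 and 3.43 in H689A/F667I, and no peak in A677G or Y641F replicate 1. ITGA10 had peaks only in A677G, of 214 and 200 bp with fold enrichments of 3.91 and 3.40, both inside the stretch printed above. These widths were at percentiles 1.15 and 0.383 of the promoter widths of their libraries, and the −log10 p was 5.97 and 4.69.

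Loss went with the strength of the promoter in WT over all genes. In the weakest decile by mean WT fold enrichment, 25.5% of promoters were lost in Y641F, with 9.20% in A677G and 6.28% in H689A/F667I, and in the strongest decile 0.448%, 0.149% and 0.0747%. COL6A1, COL18A1 and ITGB2 were in the weakest decile, together with COL12A1, COL27A1 and ITGB4, and COL22A1 and COL5A2 were in the third. On chromosome 21, 12 of 124 promoters open in WT were lost in Y641F (9.68%). In the span from ITGB2 to COL6A2, 4 of 9 were lost in Y641F, 3 of them being collagen or integrin genes, 2 in A677G and 0 in H689A/F667I. This span was picked after the values were seen, and the part of peak strength in it was not tested.

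**Figure D3:**
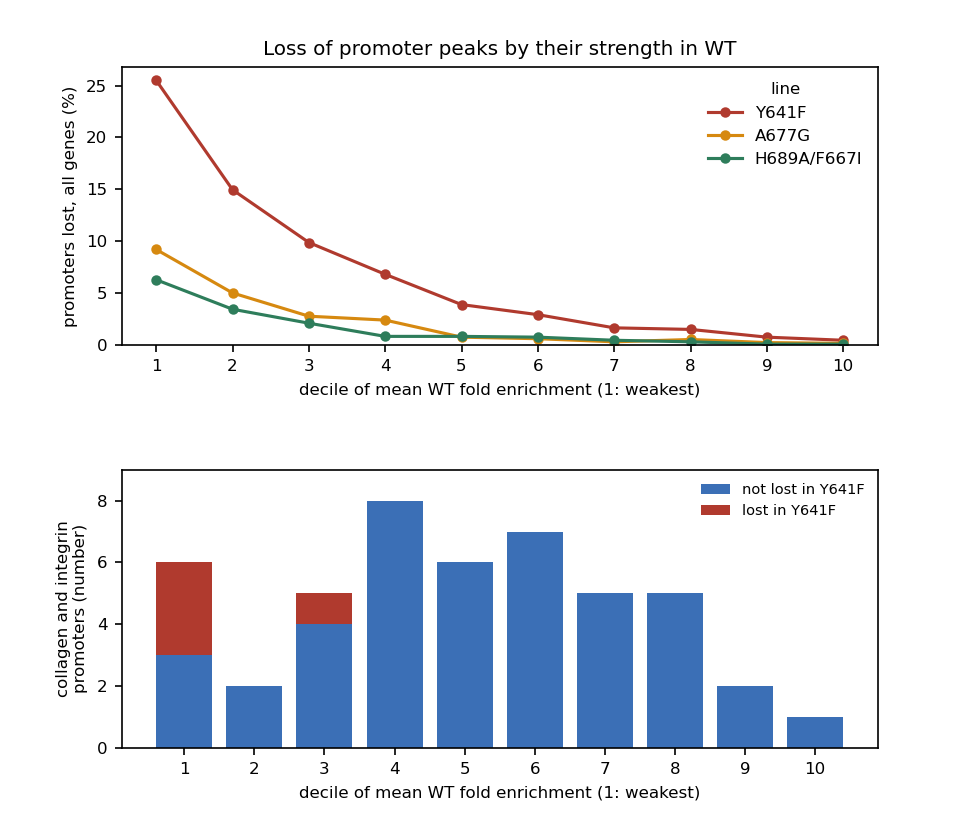
Top, share of all promoters open in both WT libraries that were lost in each mutant (percent), by decile of mean WT fold enrichment. Bottom, number of collagen and integrin promoters in each decile, with those lost in Y641F in red. Loss falls from 25.5% in the weakest decile to 0.448% in the strongest in Y641F, and 3 of the 4 lost promoters are in the weakest decile.

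The number of lost promoters depended on single libraries and on the length of the lists. Without Y641F replicate 2 it was 16 of 47 (34.0%, beside 16.2% of all promoters), and without Y641F replicate 1 it stayed at 4, the same genes. Without WT replicate 2 it was 7 of 50, beside 8.83% of all promoters. In A677G the number was 5 of 50 without WT replicate 2, beside 3.90% of all promoters, and 5 of 47 without A677G replicate 2, beside 5.42%. With lists cut to equal numbers of peaks, 1 of 31 was lost in each of Y641F (COL16A1), A677G (ITGA5) and H689A/F667I (ITGA9), beside 2.14%, 1.16% and 1.28% of all promoters. COL15A1 was gained in both GOF lines, 1 of 31 in each, beside 3.68% in Y641F and 3.08% in A677G over all genes.

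COL25A1, ITGA2, ITGA4 and ITGA6, named by the study as targets common to Y641F and A677G, and COL4A1 were open in all libraries. The study named its targets by differential analysis, from reduced accessibility together with H3K27me3 gain and lower RNA. Peak presence and fold enrichment at promoters are other measures, so the values below do not test the study's call. COL25A1, a transmembrane collagen of neurons and muscle, had fold enrichments of 4.53 and 4.61 in WT, 5.00 and 4.87 in Y641F, 4.28 and 4.09 in A677G, with 4.30 and 4.60 in H689A/F667I. The Y641F libraries lay above WT and the A677G libraries below. ITGA2, the alpha2 subunit of a collagen I receptor, had 5.03 and 4.88 in WT, 4.88 and 4.58 in Y641F, 4.31 and 4.54 in A677G, with 4.65 and 4.50 in H689A/F667I. ITGA4, a receptor subunit for fibronectin and VCAM1, had 5.03 and 4.41 in WT, 4.52 and 3.76 in Y641F, 3.86 and 4.62 in A677G, with 4.18 and 4.47 in H689A/F667I, and all groups overlapped.

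ITGA6, a laminin receptor subunit, had 3.97 and 4.04 in WT, 3.70 and 3.57 in Y641F, 3.63 and 4.04 in A677G, with 3.67 and 3.61 in H689A/F667I. COL4A1 had 3.24 and 3.46 in WT, 3.14 and 3.06 in Y641F, 3.38 and 3.03 in A677G, with 3.34 and 3.66 in H689A/F667I. Its summed peak width was 1605 and 1759 bp in WT and 384 and 1299 bp in Y641F. It was 895 and 708 bp in A677G and 921 and 1199 bp in H689A/F667I. Each mutant library lay below both WT libraries. Promoter peaks were also narrower over all genes, with median widths of 1226 and 1211 bp in WT and 770 to 1041 bp in the mutant libraries. Relative to the library median, in the limma comparison described below, COL4A1 was not called by width. Its log2 differences were -0.67, -0.71 and -0.43 in Y641F, A677G and H689A/F667I (adjusted p = 0.427, 0.631 and 0.948, limma).

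Fold enrichment and peak width were compared over the 10999 promoters open in all 8 libraries, of which 30 belonged to collagen and integrin genes. limma was used on log2 values centred on the median of each library, with Benjamini-Hochberg adjustment over all promoters. None of the 30 was called in any mutant at an adjusted p of 0.05. Over all promoters, limma called 228 in Y641F by fold enrichment (2.07%), 0 in A677G (0%) and 0 in H689A/F667I (0%), and by width 26 (0.236%), 2 (0.0182%) and 0 (0%). At an unadjusted p of 0.05, 7, 6 and 3 of the 30 passed by fold enrichment and 8, 3 and 3 by width, where 2443, 1547 and 947, and 2164, 877 and 540 of all promoters did. Promoters that closed in any library have no value here. Before centring, the median width over all promoters was 0.54 lower than in WT on the log2 scale in Y641F, 0.32 lower in A677G and 0.21 lower in H689A/F667I, and the changes below are relative to that shift.

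The lowest adjusted p by fold enrichment was that of ITGA9, the alpha9 subunit, which binds tenascin and pairs with beta1. It had 3.60 and 5.17 in WT, 2.87 and 2.97 in Y641F, 3.04 and 3.26 in A677G, with 3.01 and 3.19 in H689A/F667I. All mutant libraries lay below both WT libraries. The peak behind the WT replicate 2 value is at another start site of the gene (chr3:37779579-37779854), whereas the other libraries had their strongest peak at the 5′ end. The log2 difference from WT was -0.46 ± 0.14 (SE) in Y641F (adjusted p = 0.0877, limma), -0.41 ± 0.14 in A677G (adjusted p = 0.222) and -0.46 ± 0.14 in H689A/F667I (adjusted p = 0.410). With the 5′ end alone the log2 differences were -0.19, -0.14 and -0.18 (adjusted p = 0.252, 0.530 and 0.601, limma), and over all alternatives the adjusted p in Y641F ran from 0.0469 to 0.476. Summed over the peaks at its start sites, ITGA9 had a width of 967 and 1004 bp in WT and 239 and 457 bp in Y641F. The WT replicate 2 sum includes the peak at the other start site. The log2 difference was -0.996 ± 0.230 (SE; adjusted p = 0.147, limma). By width it was called without Y641F replicate 2, at -1.31 (adjusted p = 0.0306, limma), and the adjusted p ran from 0.0306 to 0.557 over all alternatives. That call rests on Y641F replicate 1 alone, the library with the shortest list, which is assumed to vary like the libraries of the other lines. With the 5′ end alone the difference in width was -0.53.

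COL23A1, a transmembrane collagen, had the lowest adjusted p by width. Its summed peak width was 1049 and 1046 bp in WT and 207 and 305 bp in Y641F. It was 395 and 646 bp in A677G and 948 and 741 bp in H689A/F667I. The widths did not overlap between WT and Y641F, and the log2 difference was -1.48 ± 0.25 (SE; adjusted p = 0.0910, limma). COL5A1 had a log2 difference in fold enrichment of -0.30 ± 0.09 in A677G (adjusted p = 0.192, limma) and 0.03 ± 0.09 in Y641F (adjusted p = 0.877). COL25A1 had 0.21 ± 0.09 in Y641F (adjusted p = 0.203, limma) and -0.09 ± 0.09 in A677G (adjusted p = 0.699). ITGA3, a laminin receptor subunit, had 4.16 and 4.22 in WT and 3.22 to 3.64 over the 6 mutant libraries, with log2 differences of -0.24, -0.23 and -0.24 in Y641F, A677G and H689A/F667I (adjusted p = 0.158, 0.304 and 0.495, limma). A p that misses the threshold does not show that the values were equal.

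**Figure D4:**
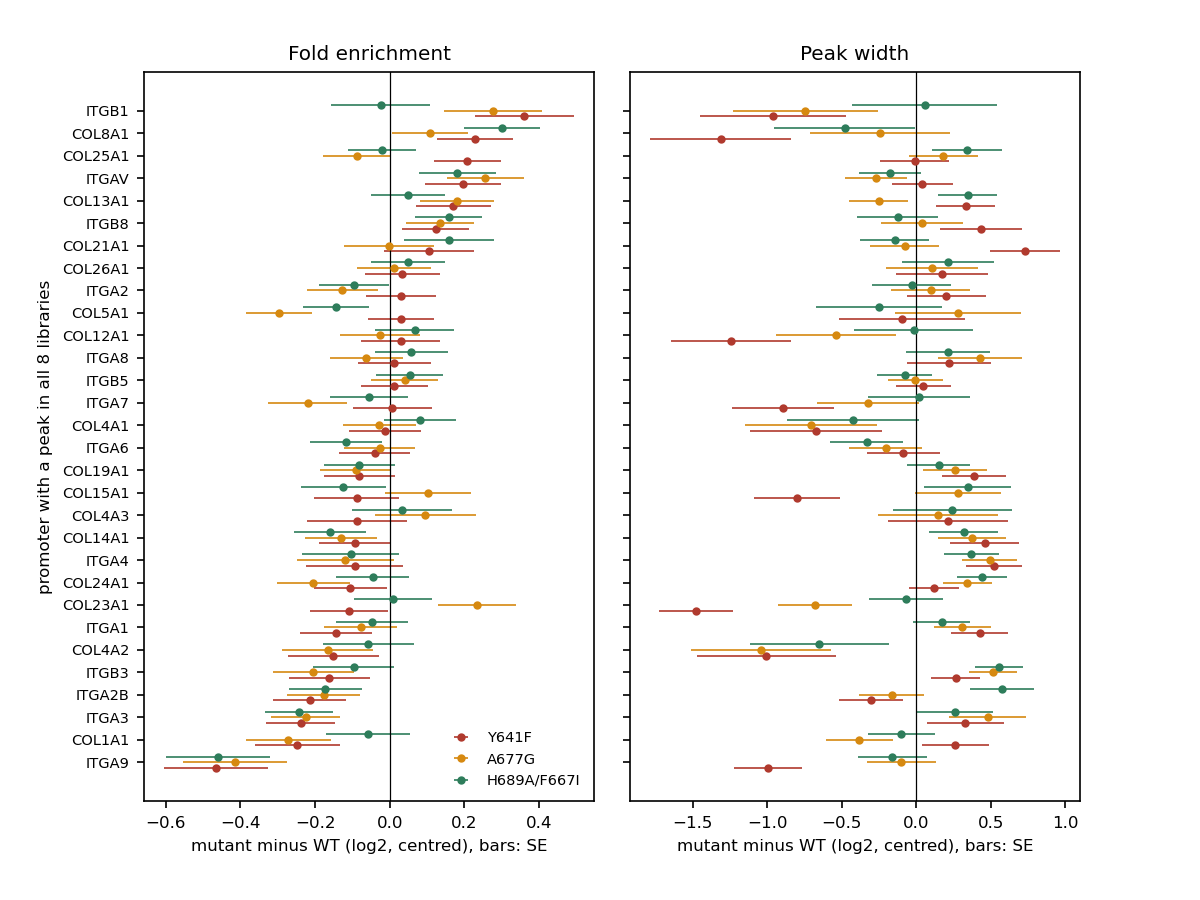
Difference from WT in log2 fold enrichment (left) and log2 peak width (right) of the 30 promoters open in all 8 libraries, as limma estimates with SE bars, for each mutant line. Rows are ordered by the Y641F difference in fold enrichment. ITGA9 has the lowest values at left and COL23A1 in Y641F the lowest at right, and none was called.

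Over the 30 promoters, 16 lay below WT and 14 above by fold enrichment in Y641F, 20 and 10 in A677G, with 18 and 12 in H689A/F667I. The median difference was -0.03, -0.07 and -0.05 on the log2 scale, beside 0.02, 0.01 and 0.01 over all promoters tested. By width, 13 lay below and 17 above in Y641F, and the median was 0.08 beside 0.04 over all promoters. The 3 mutants share the WT libraries, so their differences are not independent.

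Gene bodies were examined apart from promoters. A body region is a merged peak region open in at least 2 libraries that touches the gene and lies over 1 kb from every protein-coding start site. The collagen and integrin genes held 189 of 22906 such regions, in 54 of the 67 genes, 151 in introns and 38 touching an exon. They had 167 and 161 with a peak in WT, 48 and 78 in Y641F, 79 and 102 in A677G, with 112 and 114 in H689A/F667I. Every mutant library lay below both WT libraries. As a share of all body regions open in the library, these were 0.879% and 0.859% in WT and 0.772 to 0.859% in the mutants, and body regions were also fewer over all genes, at 18998 and 18735 in WT and 5585 and 9530 in Y641F. The median fold enrichment of the body peaks was 3.58 and 3.78 in WT and 3.48 to 3.87 in the mutants.

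Of 146 body regions open in both WT libraries, 69 were lost in Y641F (47.3%), with 47 in A677G (32.2%) and 34 in H689A/F667I (23.3%). Over all genes 46.7%, 28.0% and 19.1% of 16335 regions were lost. The shares of collagen and integrin genes were near those of all genes, with 95% Wilson intervals of 39.3 to 55.3%, 25.2 to 40.1% and 17.2 to 30.8%. The intervals cover counting error only. They treat regions as independent, although many lie in the same gene, and leave out the spread between libraries. A region open in both WT libraries alone passes the filter on 2 libraries, so the loss of such regions is not a test. A region closed in both WT libraries passes it through mutant libraries alone, so its gain is not a test either. Of 7 regions closed in both WT libraries, 2 were gained in Y641F, with 2 in A677G and 1 in H689A/F667I, beside 8.55%, 13.0% and 21.9% of 1508 regions over all genes. They lie in COL24A1 and COL6A2 for Y641F, COL6A6 and COL9A1 for A677G, and COL24A1 for H689A/F667I. Collagen genes lost 46.4%, 34.0% and 25.8% of 97 regions and integrin genes 49.0%, 28.6% and 18.4% of 49.

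The share of body regions lost was set beside their strength and position. The 3 mutants share the WT libraries, so weak regions of WT enter each count. Regions under the median WT fold enrichment of 4.00 were lost in 67.1%, 49.3% and 32.9% of 73 cases, and those at or above it in 27.4%, 15.1% and 13.7% of 73. Regions touching an exon were lost in 54.8%, 25.8% and 12.9% of 31 cases, and intronic regions in 45.2%, 33.9% and 26.1% of 115. The shares over all genes are not given here for the splits by strength and by position. Neither split was tested, and neither is read as particular to these genes. With lists cut to equal numbers of peaks, 11 of 46 regions (23.9%), 9 (19.6%) and 5 (10.9%) were lost, beside 22.9%, 12.9% and 11% over all genes. Single libraries moved the counts in A677G, to 77 of 146 without A677G replicate 2, beside 47.0% over all genes. In H689A/F667I they moved to 16 of 140 without WT replicate 1, 17 of 145 without WT replicate 2 and 53 of 146 without H689A/F667I replicate 1, beside 11.8%, 11.9% and 30.6% over all genes.

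COL26A1, of the class of multiplexin, anchoring and other collagens, had 11 body regions, 10 of them open in both WT libraries. It had 11 and 10 with a peak in WT, 2 and 3 in Y641F, 7 and 6 in A677G, with 6 and 8 in H689A/F667I, and lost 6, 3 and 2. ITGA9 had 10, with 9 and 8 in WT, 1 and 3 in Y641F, 0 and 1 in A677G, with 2 and 4 in H689A/F667I, and lost 4, 6 and 4 of its 7 regions open in WT. The A677G and Y641F libraries overlapped for ITGA9, every mutant library lay below both WT libraries, and its promoter was open throughout. Body regions were also fewer over all genes, at 18998 and 18735 in WT and 5585 to 14324 in the mutant libraries. The counts of COL26A1 and ITGA9 were not tested against that general drop.

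COL23A1 had 11 body regions, 5 open in both WT libraries and 1 lost in each mutant. Its region at chr5:178460798-178461571 had the highest mean WT fold enrichment of all 189, at 7.50 and 6.74 in WT, 4.00 and 6.05 in Y641F, 5.33 and 5.11 in A677G, with 6.21 and 4.83 in H689A/F667I. It was open in all 8 libraries, and since it was picked by its WT values, lower values in the mutants are favoured by that choice. ITGA8, the alpha8 subunit needed in kidney development, had 7 regions with a peak in both WT libraries, 1 and 4 in Y641F, 3 and 6 in A677G, with 5 and 5 in H689A/F667I.

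In the other classes, the gene with the most regions open in WT was COL5A1 for the fibrillar collagens (6, of which 1, 2 and 1 were lost in Y641F, A677G and H689A/F667I), COL8A1 for the network collagens (6, of which 2, 2 and 2 were lost) and COL25A1 for the transmembrane collagens (6, of which 2, 1 and 1 were lost). For the fibril-associated collagens COL19A1, COL21A1 and COL22A1 had 4 each. COL6A5 had 3 for the beaded filament class, with 1, 1 and 0 lost. Among integrins, ITGA1 had 5 with 2, 2 and 0 lost, ITGA6 had 4 with 2, 1 and 0 lost, ITGB1 had 4 with 1, 0 and 0 lost, and ITGAE and ITGB2 had 2 each. COL27A1 and COL5A2 each lost 3 of 4 in Y641F. These genes were picked by their regions open in WT or by their losses, so the counts are a description.

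**Figure D5:**
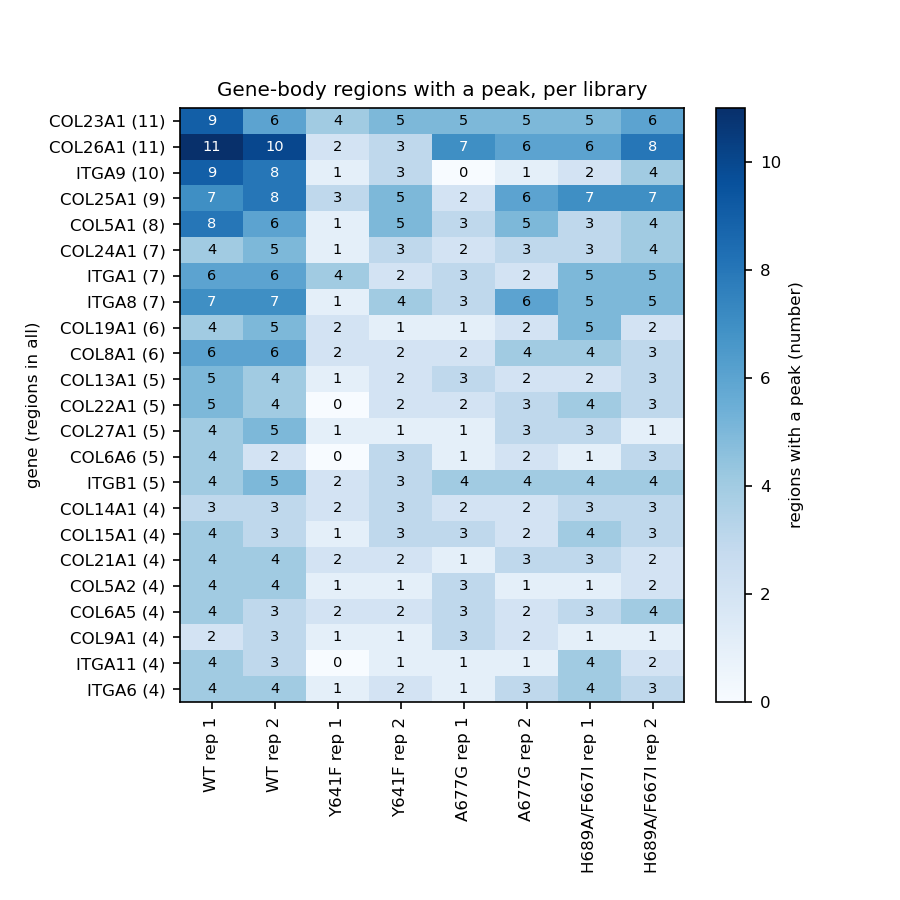
Number of body regions with a peak in each library (colour and digits) for the genes with at least 4 regions, with the number of regions in brackets. COL26A1 goes from 11 and 10 in WT to 2 and 3 in Y641F, and ITGA9 from 9 and 8 to 0 and 1 in A677G. Body regions were also fewer over all genes in every mutant library.

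A pair of body regions had a peak in each library of WT and H689A/F667I and in none of the 4 GOF libraries, 2.60% of 77, beside 5.83% of 9316 over all genes. No region showed the reverse among 4, beside 0.852% over all genes. Those 4 passed the filter on 2 libraries through GOF libraries alone, so that count is not a test. The first was intronic in ITGA11, the alpha11 subunit of a collagen receptor of mesenchymal cells (chr15:68372448-68372863). It had fold enrichments of 4.94 and 4.04 in WT and 4.29 and 3.27 in H689A/F667I. The second was intronic in COL26A1 (chr7:101538051-101539159), with 3.60 and 3.64 in WT and 2.61 and 3.49 in H689A/F667I. Without H689A/F667I replicate 1 the count was 10 of 93, beside 10.5% over all genes. Without H689A/F667I replicate 2 it was 8 of 96, beside 10.5%, and without A677G replicate 2 it was 9 of 77, beside 12.9%. Leaving out each other library gave 2 or 3. With lists cut to equal numbers of peaks it was 0 of 27, beside 2.28%. The central 300 bases of both, from hg38 on the plus strand at chr15:68372506-68372805 and chr7:101538456-101538755, are shown with the same motifs in capitals.
ITGA11 intron: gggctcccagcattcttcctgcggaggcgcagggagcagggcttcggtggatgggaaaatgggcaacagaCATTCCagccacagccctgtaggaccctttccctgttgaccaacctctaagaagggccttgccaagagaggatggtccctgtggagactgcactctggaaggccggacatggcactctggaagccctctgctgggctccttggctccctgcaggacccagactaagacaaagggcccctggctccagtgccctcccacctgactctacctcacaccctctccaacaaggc
COL26A1 intron: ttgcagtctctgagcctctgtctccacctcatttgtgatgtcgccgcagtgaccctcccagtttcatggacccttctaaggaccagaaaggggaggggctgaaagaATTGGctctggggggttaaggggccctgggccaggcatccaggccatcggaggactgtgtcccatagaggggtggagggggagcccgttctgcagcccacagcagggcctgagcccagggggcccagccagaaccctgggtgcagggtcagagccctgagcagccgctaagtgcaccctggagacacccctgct

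The ITGA11 stretch had a GC share of 61.0% and 4 CpGs, and held 1 TEAD motif. The COL26A1 stretch had a GC share of 63.3% and 5 CpGs, and held 1 CCAAT box. Over the 189 regions the central 300 bases had a median GC share of 49.7% and a CpG ratio of 0.225, beside 47.7% and 0.221 over all body regions. An AP-1 motif was found in 15.9% beside 12.1%, a TEAD motif in 14.8% beside 17.4%, a GC box in 11.6% beside 11.3%, a CCAAT box in 27.0% beside 31.2%, and a TATA box in 17.5% beside 18.5%. Regions of these genes lost in Y641F had a median CpG ratio of 0.203 and those open in both Y641F libraries 0.283, and over all genes the values were 0.218 and 0.260.

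Among the other genes of the matrix and of adhesion, 17 of 19 collagen processing enzymes and chaperones had a peak in both WT libraries. The Y641F libraries lost 2 of them, BMP1, the procollagen C-proteinase, and LOXL4, a lysyl oxidase, and LOXL4 was also lost in A677G, where 1 gene of the list was gained. Of 18 laminins and other matrix ligands 16 were open in both WT libraries, and those lost in Y641F included HSPG2, which encodes perlecan, and VTN, which encodes vitronectin. Of 21 genes of the integrin adhesion complex 19 were open in both WT libraries, and PXN and PARVB, which encode paxillin and beta-parvin, were lost in Y641F. Of 5 other collagen receptors 3 were open in both WT libraries and none was lost. None was lost in H689A/F667I in these lists. LAMB4, FERMT3, PARVG and LAIR1 were closed in all libraries, and limma called 0 of the promoters of these lists by fold enrichment or width.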

How the data were processed

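ATAC-seq peak lists of 8 libraries were analysed, with groups taken from the titles of the samples. By the study's methods section and the submitters' processing notes, the authors trimmed reads with Trim Galore 0.6.5, aligned them to GRCh38/hg38 with BWA 0.7.17, removed duplicates and called broad peaks with MACS2 2.2.7.1 per library. The handling of the transposase offset is not given in the sources used here, and read depth is unknown. The titles of the samples say ATAC-seq, although 1 sentence of the labels' extraction protocol calls the libraries CUT&Tag. For every peak the deposited lists hold the fold enrichment (a ratio) and 2 significance columns, −log10 p and −log10 q. The deposited score column was left out. The lowest deposited −log10 q was 1.0.

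Peaks on chromosomes 1 to 22 were joined to GENCODE 44, with at least 1 bp of overlap. Where several peaks touched a promoter, the fold enrichment was that of the peak with the highest −log10 p and the width was their sum. Collagen and integrin genes were found by symbol, 1 matching gene is not reported here, and the classes were set by hand. The genes and lists were chosen with earlier results of these data known. limma 3.58.1 (R 4.3.3) was fitted to log2 values of all 8 libraries with no pseudocount. The fit was tested on simulated data with planted changes. RefSeq promoters were found for 46 of the 67 genes (68.7%), so a comparison of their composition with all promoters is void. Genes named were those lost, gained or called, the study's targets and COL4A1, those with the most regions or losses, and the 3 strongest in WT. The exceptions, chosen after their values were seen, are those named for ITGA3, COL23A1 and the 10 genes closed in Y641F replicate 1. Same-numbered libraries did not deviate together (r of -0.02 to 0.06 between lines), and the labels do not say that a number marks a batch. Alternatives changed the peak threshold, list length, window, start sites, overlap, centring and block, and left out each library.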

Additional observations from a re-analysis of the deposited data

How the results depend on the processing

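With only peaks at a −log10 q of at least 5, 9, 9 and 6 promoters of collagen and integrin genes were lost in Y641F, A677G and H689A/F667I, and 0 were gained in A677G. Body regions lost were then 26, 17 and 13, and 0 were gained in Y641F and 0 in A677G. With every list cut to its strongest 25423 peaks, 1 promoter was lost in each mutant, 1 was gained in Y641F and 1 was open in all 4 GOF libraries. Body regions lost were 11, 9 and 5, gained were 4, 5 and 2, and 0 were closed in all 4 GOF libraries. A window of 500 bp gave 8 promoters lost in Y641F and 1 in H689A/F667I. The 5′ end of the gene alone gave 1 lost in A677G, 2 lost in H689A/F667I and 1 gained in Y641F, and there the difference of ITGB1 in Y641F was -0.076 in place of 0.36. A peak over 50% of a body region gave 0 gained in Y641F and 2 in H689A/F667I. Without centring, limma called 1 promoter by fold enrichment (ITGA9) and 5 by width in Y641F (COL12A1, COL15A1, COL23A1, ITGA7 and ITGA9). The width of ITGA4 in Y641F was then -0.059 in place of 0.52. Uncentred values carry the general difference of Y641F from WT. Its median over all promoters was -0.54 by width and -0.08 by fold enrichment on the log2 scale. The number called over all promoters is not given here, so these calls are not read as particular to these genes. The counts in this paragraph stand without the share over all genes. The number of promoters or regions open in both WT libraries can also change with the setting. They describe the settings and are not a result particular to these genes. The cause of these moves was not tested.

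Leaving out each library in turn gave 4 to 16 promoters lost in Y641F, 2 to 5 in A677G and 0 to 2 in H689A/F667I, with 0 to 1, 1 to 2 and 0 to 1 gained, and 0 to 1 closed in all 4 GOF libraries. Body regions lost ranged from 59 to 103, 36 to 77 and 16 to 53, and gained from 1 to 3, 1 to 4 and 0 to 5. Those closed in all 4 GOF libraries ranged from 2 to 10 and those open there from 0 to 2. Where shares over all genes are given above, they moved with the library left out too. The ranges are therefore not a result particular to these genes. limma called 0 to 1 by width in Y641F, where a line left with 1 library is assumed to vary like the others. A replicate block in limma gave 155 promoters of all genes by fold enrichment in Y641F in place of 228, 0 by width in each mutant, and 0 of the 30 of these genes in any comparison. The same-numbered libraries did not deviate together, so the block does not show a pairing. Read depth is unknown and limits what a closed promoter means.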
